A study of Homo sapiens with 6 samples.

Results

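The genes of chromosome band 15q21 and its border with 15q22 were followed on arrays of cells labelled as HSC2, a line from a human oral squamous carcinoma. The set was a list of 43 genes running from EIF3J to ADAM10. Of these, 38 had a probe set that the platform annotation assigns to a single gene, out of 11963 genes measured in this way, and 5 (SORD, TRPM7, SPPL2A, LEO1 and LIPC) were not analysed here. Each gene was represented by its probe set with the highest mean over all 6 arrays. Total RNA was hybridised to Affymetrix arrays, 1 array per sample. By their labels, 3 arrays held HSC2 stably expressing full-length wild-type MALT1 from a transfected cDNA, and 3 held HSC2 transfected with the vector alone, called mock. The MALT1 signal goes against these labels, as given below with marker genes that also differ between the groups, so which cells each group held is unsure. Per the labels, both groups grew in DMEM with fetal bovine serum and antibiotics. The promoter of the cDNA is not given in the labels, and neither is whether a line was 1 clone or whether replicates were grown separately. Errors and p-values therefore measure only how far these arrays differ among themselves, and that spread may be technical. The labels describe a comparison of cells with and without added MALT1. The MALT1 probe sets show no such addition, though whether they lie within the cDNA was not analysed here. MALT1 is a protease and scaffold that passes signals to NF-kappaB.

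The band carries no single pathway. Its genes encode B2M, the light chain of HLA class I molecules, the metalloprotease ADAM10, class V myosins and the small GTPase RAB27A that move vesicles along actin, the atypical kinase MAPK6, subunits of large complexes such as the COP9 signalosome, and several enzymes and transporters. Neighbouring genes on a chromosome share its copy number and some of its chromatin, while each has its own start of transcription.

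The members were chosen by their measured difference between the MALT1-labelled and the mock-labelled arrays, the only contrast of the study. Their values are therefore given as a description, without a test. All differences are means of log2(signal + 1) on the MALT1-labelled arrays minus those on the mock-labelled arrays, and the error after them is the standard error of the fit over all probe sets. Counts called higher or lower passed an adjusted p of 0.05 in that fit (limma, Benjamini-Hochberg over all probe sets). A signal at or below 17.6, the highest that the bacterial trp control probe sets gave on any array, was taken as dim.

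The labels were first set against the data. The MALT1 transcript was lower in the group named for it on all 3 of its probe sets, of which 2 passed the test. The probe set with the largest difference had 128, 124 and 107 on the MALT1-labelled arrays against 282, 242 and 236 on the mock-labelled arrays (−1.08 ± 0.12, limma adjusted p = 0.0022). The groups are therefore called by their labels throughout, and no difference is ascribed to MALT1. Whether these probes lie within the cDNA was not analysed here. Of the squamous keratinocyte markers, 11 of 11 measured fell, and their summed signal was 26001 to 28822 on the MALT1-labelled arrays against 64003 to 73032 on the mock-labelled arrays. KRT5 was at 994 to 1019 against 5019 to 6218, so that these markers were present in both groups. Of the luminal epithelium markers, 11 of 12 rose, and their summed signal was 76967 to 85412 against 8903 to 9648. Of the 12, 5 were dim on all mock-labelled arrays, KRT19 among them at 1.17 to 1.29. PGR, also among the 5, was dim on all 6 arrays and was not called. Of the leukocyte markers, 1 of 8 rose, CD14, and their summed signal was 90.1 to 214 against 85.8 to 106. CD14 lay around the dim level at 7.41 to 27.1, against 0.971 to 2.26 on the mock-labelled arrays, all dim, so no fold is given. The leukocyte antigen PTPRC was dim on all 6 arrays, at 7.79 to 17.2 against 7.71 to 12.7. Of the fibroblast markers, 1 of 9 passed, LUM, which was lower at 0.189 to 0.424 against 17.8 to 21.2, and their summed signal was 145 to 277 against 162 to 230.1. LUM was dim on all MALT1-labelled arrays and just above the dim level on the others, so only a bound of at least 1.10-fold lower can be given. The part of these marker differences in the results that follow was not tested. In RNA from whole cultures, fewer cells of a type and less RNA per cell cannot be told apart.

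Of the 38 measured members, 16 were called higher and 6 lower on the MALT1-labelled arrays, and 16 were not called. Over all 11963 genes, 40.4% were called in either direction, 21.1% higher and 19.2% lower, and since the members came from this contrast nothing is read from this. Of the called members, 11 were at least 2-fold higher and 3 at least 2-fold lower, against 10.8% and 9.64% of all genes. The MALT1-labelled arrays lay wholly above the mock-labelled ones for 19 members and wholly below for 9, against 29.0% and 25.6% of all genes, or 54.6% in either direction, and the groups overlapped for 10 members. The median difference was 0.31 over the members and 0.08 over all genes, or 0.24 and 0.0 with dim genes set at their bound. After quantile normalization it was 0.17, with −0.02 over all genes, and without mock replicate 2 it was 0.48. Differences ran from −1.77 for DUOX1 to 5.46 for MYO5C, with an SD of 1.41 between members. Among the 30 members above the dim level on at least 1 array of each group, the median SD between arrays of a group was 0.09 on the MALT1-labelled arrays and 0.10 on the mock-labelled arrays, on the log2 scale. It reached 2.17 and 1.52 in BCL2L10, whose signals lay around the dim level. No array stood apart for these members, since each array's median deviation from its group mean lay between −0.02 and 0.02.

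**Figure D1:**
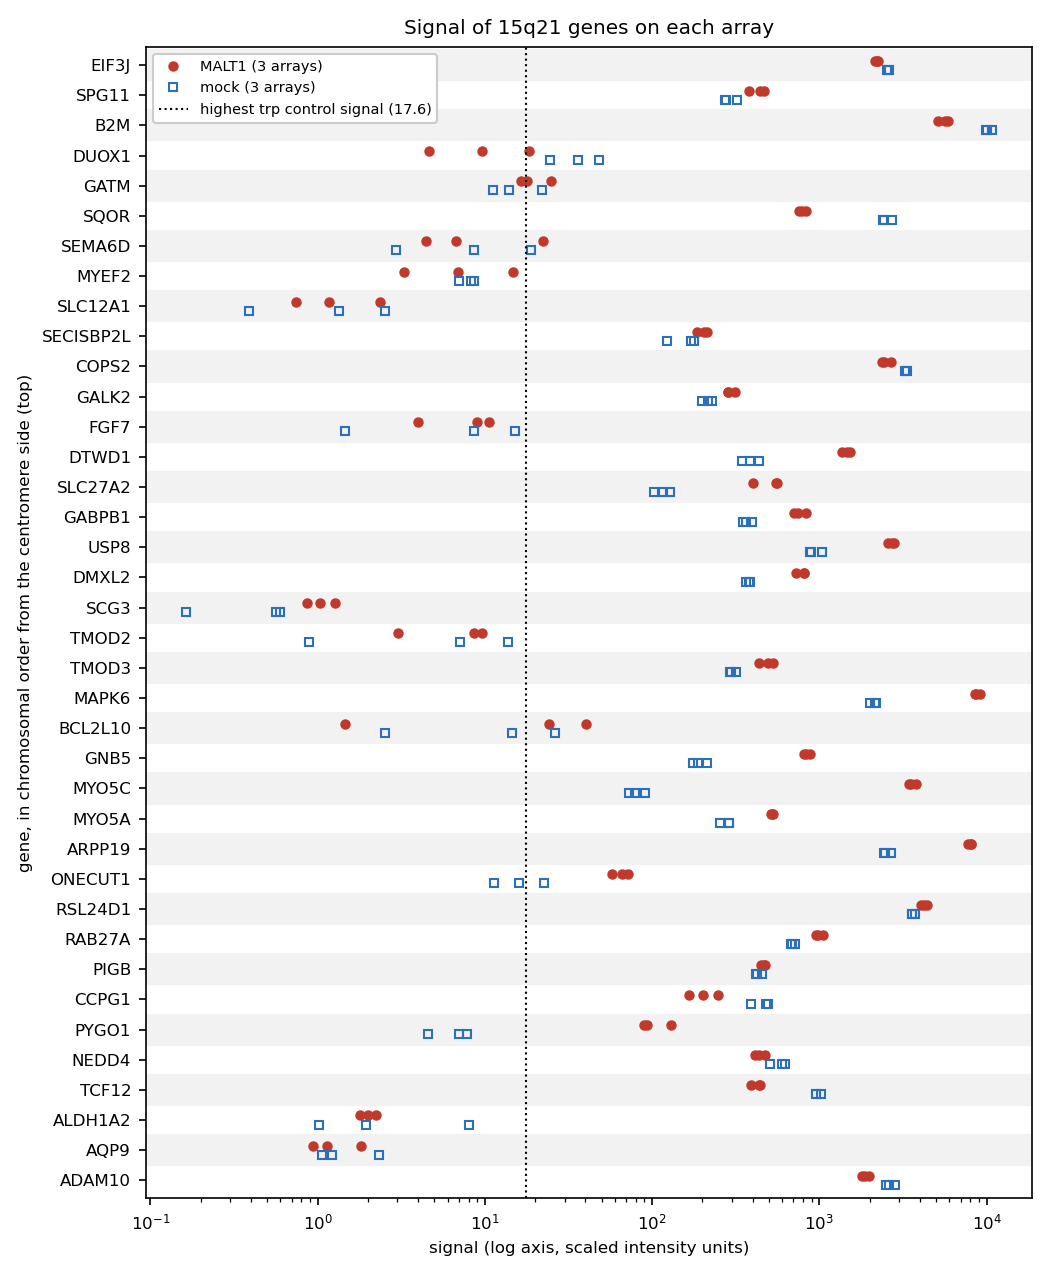
Signal of the 38 measured 15q21 genes on each array, on a log axis in scaled intensity units, with genes in chromosomal order from the centromere side at the top. Filled circles are the 3 MALT1-labelled arrays, open squares the 3 mock-labelled arrays, and the dotted line is the highest trp control signal, 17.6. From DTWD1 down to ARPP19, the circles lie right of the squares for every gene above the dotted line on all 6 arrays, whereas SQOR, TCF12 and B2M lie the other way.

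The members that were higher lay mostly side by side. In gene order, the 20 measured members from DTWD1 to PYGO1 held 14 of the 16 called higher, together with 1 called lower, CCPG1, and 5 not called, and their median difference was 1.04. The 13 measured members before DTWD1 had 2 called higher and 3 called lower, with a median of 0.05 (0.0 where dim ones take their bound). The 5 after PYGO1 had 0 called higher and 2 called lower, with all 5 differences below 0 and a median of −0.38. These borders were drawn after the values were seen and carry no test. For comparison, the shares called over all genes were 21.1% higher and 19.2% lower.

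From SPG11 to ADAM10 the chromosome holds 16 measured genes that are not among the members, and these were set by gene order alone. Of them, 1 rose, 4 fell and 11 did not pass, with a median difference of −0.41, or 0.0 with dim genes set at their bound, since 8 of the 16 were dim in at least 1 group. Inside the stretch from DTWD1 to PYGO1, 6 such genes were measured, of which 1 rose and 1 fell. Both were singled out after their values were seen. GABPB1-IT1, a transcript named for an intron of GABPB1, which that gene's unspliced RNA could also feed, had 479, 466 and 445 on the MALT1-labelled arrays against 47.3, 57.7 and 42.2 on the mock-labelled arrays (3.22 ± 0.14 SE, limma adjusted p = 0.00011). HDC, which makes histamine, was dim on all MALT1-labelled arrays, at 3.08 ± 0.971, against 18.2 ± 5.06 on the mock-labelled arrays (SD, n = 3 each), so that only a bound of at least 1.01-fold lower can be given (limma adjusted p = 0.00258). Of the 6 genes, 2 were dim on all 6 arrays and 2 on all arrays of 1 group. HDC is among the latter, with 1 mock-labelled array above the dim level. Such genes say little about how far the run of higher signals extends. Among the members of the stretch, CCPG1 was called lower and PIGB overlapped between the groups, so the run did not include every measured gene between its ends. Of the 40 measured genes just before EIF3J, 8 rose and 11 fell, with a median of −0.19. Of the 40 just after ADAM10, 13 rose and 7 fell, with a median of 0.14, or 0.11 with dim genes at their bound. These flank counts moved when single arrays were left out, with 5 rising before EIF3J without MALT1 replicate 1, MALT1 replicate 2 or mock replicate 2, 7 falling there without mock replicate 1, and 8 rising after ADAM10 without mock replicate 1 or 2. Without any members, the rest of chromosome 15 had 80 genes higher and 49 lower of 322, with a median of 0.21, or 0.0 with dim genes at their bound. Beside all these counts, 21.1% of all genes were called higher and 19.2% lower, with a median of 0.08.

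**Figure D2:**
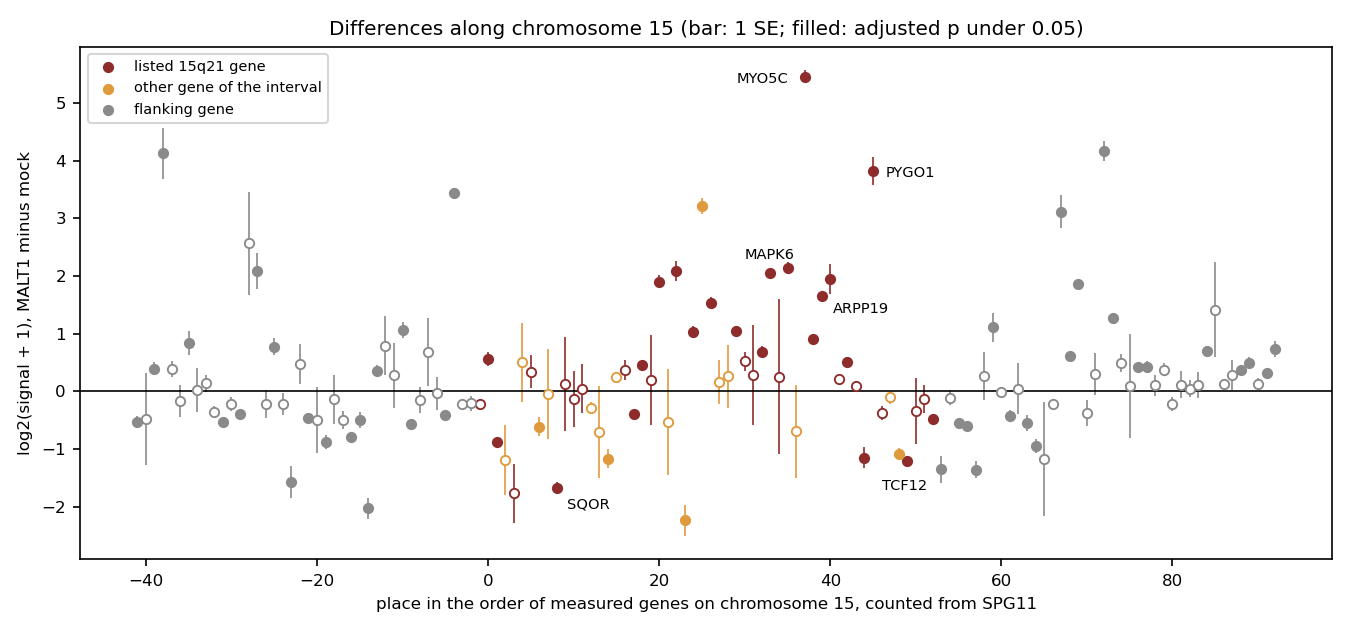
Difference in log2(signal + 1), MALT1-labelled minus mock-labelled arrays, against the place of each measured gene in the order along chromosome 15, counted from SPG11. Dark red marks the listed genes, orange the other genes of the interval and grey the 40 genes on each side. Bars are 1 SE and filled points passed an adjusted p of 0.05. Listed genes above 1 gather between DTWD1 and PYGO1, with MYO5C at 5.46 the highest. The 6 orange points there fall on both sides of 0, but only 2 are above the dim level on at least 1 array of each group.

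Among genes of actin ends, myosin motors and vesicle traffic, 6 of 8 were called higher and 0 lower, against 21.1% and 19.2% of all genes. As for the other groups of members, these were chosen by this contrast and the count is a description. MYO5C, a class V myosin of glandular epithelia, had 3541, 3421 and 3779 on the MALT1-labelled arrays against 73.2, 90.8 and 78.6 on the mock-labelled arrays. The means differed 44.3-fold (3581 ± 182 against 80.9 ± 9.03, SD, n = 3 each; difference 5.46 ± 0.11), and no other member differed by as much. Its neighbour MYO5A, the class V myosin that carries melanosomes and secretory granules, had 528, 519.7 and 516 against 290.0, 254 and 286 (0.91 ± 0.09). Both neighbours were thus higher on every MALT1-labelled array, by amounts that differed widely on the log2 scale. A further probe set for MYO5A was dim on all 6 arrays.

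The 250 bases before the start of each of these neighbours, which both read from the minus strand, are shown because the genes lie side by side and differed so unequally. They come from RefSeq (GRCh38.p14), MYO5C at chr15:52295805-52296054 and MYO5A at chr15:52529051-52529300, each written 5′ to 3′ on the gene's own strand. Capitals mark CCAAT and the SP1 core GGGCGG, on either strand.
MYO5C: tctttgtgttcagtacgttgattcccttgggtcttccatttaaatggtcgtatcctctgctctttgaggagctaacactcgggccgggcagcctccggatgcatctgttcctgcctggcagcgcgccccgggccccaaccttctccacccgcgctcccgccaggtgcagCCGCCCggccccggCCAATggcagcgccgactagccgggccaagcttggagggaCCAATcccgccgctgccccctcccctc
MYO5A: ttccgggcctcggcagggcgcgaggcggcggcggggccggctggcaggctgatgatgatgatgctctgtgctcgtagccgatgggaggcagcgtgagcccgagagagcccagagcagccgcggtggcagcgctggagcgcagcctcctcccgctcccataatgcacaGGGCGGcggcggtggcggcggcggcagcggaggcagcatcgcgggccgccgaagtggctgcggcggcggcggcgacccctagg
The MYO5C window has 65.6% G or C and holds CCAAT in 2 places and the SP1 core in 1, while the MYO5A window has 75.2% G or C, 1 SP1 core and no CCAAT. Any part of these letters in the unequal differences was not tested.

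RAB27A, the GTPase that docks secretory vesicles and links them to class V myosins, was higher with all 4 of its probe sets. The brightest, an x_at probe set that can bind several transcripts, had 956, 976 and 1045 on the MALT1-labelled arrays against 719, 684 and 676 on the mock-labelled arrays (0.52 ± 0.08). The other 3 differed by 0.49 to 0.93. TMOD3, which caps the slow-growing ends of actin filaments, had 495, 531 and 436 against 293, 318 and 298 (0.68 ± 0.11). Its neighbour and paralog TMOD2, a form known from neurons, was dim on all 6 arrays. DMXL2, which regulates the vesicular proton pump, had 809, 806 and 723 against 380.2, 386 and 362 (1.05 ± 0.09), and its second probe set was dim, so that averaging both ended the call. SPG11, which acts in lysosome recycling, had 439, 379 and 466 against 321, 272 and 277 (0.56 ± 0.13). The groups did not overlap for TMOD3, DMXL2 or SPG11. The SPG11 call was lost when MALT1 replicate 1 or 3 or mock replicate 2 or 3 was left out. The granule protein SCG3 was dim on all 6 arrays, so no fold is given.

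Known RAB27A effectors elsewhere in the genome were looked up as partners. Of 3 measured out of 8 listed, 2 rose, against 21.1% of all genes. MLPH, melanophilin, the linker between RAB27A and class V myosin, had 2115, 2066 and 2254 on the MALT1-labelled arrays against 49.8, 42.2 and 20.2 on the mock-labelled arrays (5.90 ± 0.35, limma adjusted p = 0.000263). SYTL2, a synaptotagmin-like effector, had 152, 158 and 159 and was dim on all mock-labelled arrays at 0.284 to 1.59, at least 8.86-fold higher (adjusted p = 0.000104). MYRIP was dim on all 6 arrays.

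RAB27A shares a short stretch of DNA with another member. It starts head to head with PIGB, a mannosyltransferase of GPI anchor synthesis, and the 98 bases between one pair of their starts, at chr15:55319124-55319221 on GRCh38.p14 (RefSeq, plus strand), are shown because both genes were measured. COPS2 and GALK2 are arranged in the same way with 174 bases between them, at chr15:49155600-49155773. Capitals mark the GABP core CCGGAAGT in the first and CCAAT in the second, on either strand.
RAB27A and PIGB: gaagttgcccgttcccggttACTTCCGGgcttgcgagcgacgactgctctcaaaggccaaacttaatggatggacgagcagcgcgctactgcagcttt
COPS2 and GALK2: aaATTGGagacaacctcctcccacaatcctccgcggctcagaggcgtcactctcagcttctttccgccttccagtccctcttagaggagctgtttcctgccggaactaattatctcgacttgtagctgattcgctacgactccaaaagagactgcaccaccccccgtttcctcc
PIGB had 476, 447 and 467 on the MALT1-labelled arrays against 452, 424 and 419.9 on the mock-labelled arrays, and these groups overlapped (0.10 ± 0.08), whereas all 4 RAB27A probe sets lay apart. COPS2, a subunit of the COP9 signalosome that removes NEDD8 from ubiquitin ligases, had 2431, 2385 and 2688 against 3238, 3279 and 3336 (−0.39 ± 0.09). GALK2, a sugar kinase for N-acetylgalactosamine, had 284, 285 and 312 against 215, 200.1 and 229 (0.45 ± 0.10). The 2 genes that face each other across the 174 bases thus lay on opposite sides. The dimmer COPS2 probe set overlapped between the groups (−0.02 ± 0.16), and averaging both COPS2 probe sets ended the call. The dimmer GALK2 probe set did not overlap (0.41 ± 0.13). The GALK2 call was lost without MALT1 replicate 1 or 2 or mock replicate 1 or 2, and the COPS2 call when any 1 of these 4 arrays or mock replicate 3 was left out.

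Kinases and signalling genes of the stretch gave some of the widest gaps between groups. MAPK6, the atypical MAP kinase ERK3, had 8682, 8498 and 9136 on the MALT1-labelled arrays against 2006, 2154 and 2180.0 on the mock-labelled arrays (2.05 ± 0.09). GNB5, the beta subunit that pairs with R7 regulators of G protein signalling, had 807, 838 and 884 against 212, 188 and 175 (2.14 ± 0.11), and its other 2 probe sets differed by 2.18 and 2.42. ARPP19, an inhibitor of phosphatase PP2A-B55 at mitotic entry, had 7773, 8073 and 8087 against 2431, 2455 and 2688 (1.66 ± 0.09), with 1.28 and 1.56 on the others. For each of these 3 genes the lowest MALT1-labelled array stood above the highest mock-labelled array on every probe set. CCPG1, a receptor for the degradation of endoplasmic reticulum, was the called exception, lower at 247, 202 and 167 against 490.2, 390.5 and 479 (−1.15 ± 0.18), on an x_at probe set. BCL2L10, a BCL2 relative best known from oocytes, scattered from 1.46 to 40.2 against 2.54 to 26.3. SEMA6D, a semaphorin, scattered from 4.47 to 22.2 against 2.94 to 18.9, and the growth factor FGF7 was dim on all 6 arrays.

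Of 5 measured transcription regulators, 3 were called higher and 1 lower, against 21.1% and 19.2% of all genes. This count is a description. GABPB1, the subunit that lets the ETS factor GABP activate genes, had 743, 706 and 833 on the MALT1-labelled arrays against 352, 365 and 394 on the mock-labelled arrays (1.04 ± 0.10), and 0.58 ± 0.08 on its x_at probe set. PYGO1, a Wnt co-activator, had 93.1, 130.0 and 89.4 and was dim on all mock-labelled arrays at 4.59 to 7.87, at least 5.82-fold higher. Its second probe set ranged from 1.19 to 23.3 against 1.297 to 8.698 and overlapped. ONECUT1, a liver and pancreas homeobox factor, had 57.9, 72.2 and 66.5 against 16.1, 11.3 and 22.7 (1.95 ± 0.26), with 2 of the 3 mock-labelled arrays dim. TCF12, an E protein that binds E-boxes, was lower at 393, 441 and 434 against 952, 958 and 1017 (−1.21 ± 0.09). Its second probe set was dim on all arrays but 1, at 8.65 to 20.5 against 3.402 to 8.03, and averaging both moved the difference to −0.11 and ended the call. MYEF2 was dim on all 6 arrays.

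Translation genes and the ubiquitin pathway were mixed. DTWD1, which modifies tRNA, had 1466, 1524 and 1371 on the MALT1-labelled arrays against 437, 384 and 345 on the mock-labelled arrays (1.91 ± 0.12). USP8, a deubiquitinase of endosomes that spares receptors such as EGFR from degradation, had 2578, 2703 and 2808 against 1033, 875 and 896 (1.53 ± 0.10). Both lie in the stretch of higher genes. RSL24D1, a ribosome assembly factor, differed by 0.22 ± 0.08 and EIF3J, a loosely bound eIF3 subunit, by −0.23 ± 0.08, and neither was called although their groups did not overlap. The dimmer EIF3J probe set differed by −0.54 ± 0.10. NEDD4, a ubiquitin ligase for membrane proteins, had 435, 473 and 413 against 621, 598 and 505 (−0.38 ± 0.12), apart but not called. It was called under 4 of 13 alternatives, among them without mock replicate 3. SECISBP2L was at 186 to 214 against 123 to 179 (0.37 ± 0.17), and its second probe set lay the other way (−0.25 ± 0.21) with overlap.

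Of 9 measured genes of metabolism and transport, 2 were called higher and 1 lower, against 21.1% and 19.2% of all genes. Nothing is read from this count. SLC27A2, which takes up very long chain fatty acids and activates them, had 549, 556 and 399 on the MALT1-labelled arrays against 116, 128 and 103 on the mock-labelled arrays (2.09 ± 0.17), and 2.20 ± 0.10 on its second probe set. SQOR, which oxidises hydrogen sulfide in mitochondria, was lower at 831, 783 and 753 against 2434, 2408 and 2717 (−1.67 ± 0.10). It had the largest difference among the members called lower. DUOX1, a hydrogen peroxide producing oxidase of epithelia, had 4.63, 18.5 and 9.66 against 24.4, 36.3 and 48.04, on arrays partly at the dim level (−1.77 ± 0.52). It was not called, but was under 7 of 13 alternatives, among them without MALT1 replicate 2. GATM, the first enzyme of creatine synthesis, overlapped between the groups at 16.5 to 25.04 against 11.2 to 22.1. The kidney transporter SLC12A1, the retinoic acid enzyme ALDH1A2 and the aquaglyceroporin AQP9 were dim on all 6 arrays. With MYEF2, FGF7, SCG3 and TMOD2 they make 7 such members, with signals of 0.743 to 14.7 on the MALT1-labelled arrays and 0.164 to 15.1 on the mock-labelled arrays.

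The 2 measured genes of antigen presentation and surface proteolysis were both called lower, against 19.2% of all genes. They too were chosen by this contrast, and the count is a description. B2M had 5879, 5656 and 5157 on the MALT1-labelled arrays against 10009.7, 9933 and 10734 on the mock-labelled arrays (−0.88 ± 0.09), and its other probe set differed by −0.75 ± 0.09. ADAM10, which sheds ectodomains of Notch, cadherins and growth factors, had 1975, 1811 and 1883 against 2496, 2843 and 2596 (−0.48 ± 0.09), with −0.54 and −0.37 on its other 2 probe sets. Without MALT1 replicate 2 the ADAM10 call was lost. All MALT1-labelled arrays lay below all mock-labelled arrays on each of these 5 probe sets. Both genes lie outside the stretch from DTWD1 to PYGO1.

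The 250 bases before the B2M start (RefSeq, GRCh38.p14, chr15:44711267-44711516, plus strand) are shown because B2M is a known target of NF-kappaB. The activity of NF-kappaB was not measured here, and its part in the B2M difference was not tested. Capitals mark a match to the NF-kappaB consensus and, nearer the start, CCAAT, both on the other strand.
B2M: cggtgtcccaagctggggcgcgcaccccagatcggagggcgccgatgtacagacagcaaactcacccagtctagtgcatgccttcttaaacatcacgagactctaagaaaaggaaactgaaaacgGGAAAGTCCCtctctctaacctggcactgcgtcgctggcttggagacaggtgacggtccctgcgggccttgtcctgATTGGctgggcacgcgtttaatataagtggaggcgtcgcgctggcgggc
Among the 55 promoter windows of the 35 members that could be matched by symbol, this was the only one with the NF-kappaB consensus (1.8%, against 6.0% of the 14058 windows of all genes measured here and 5.2% of all 35116 windows of this length). The other motifs searched on both strands, with no overlap between different motifs in these windows, were found at shares of the member windows as follows. The SP1 core was in 50.9% of them, in 56.7% of windows of genes measured here and in 42.6% of all windows, so that its direction depends on the windows compared. In the same order, CCAAT was in 27.3%, 33.3% and 32.0%, the E-box CAGCTG in 9.1%, 13.4% and 14.0%, and the GABP core in 5.5%, 4.5% and 3.4%. Several windows belong to the same gene. A match is a description of the letters and not a binding site.

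Most partners of B2M were lower. Of 9 measured, 7 fell, 0 rose and 2 did not pass, with a median of −0.91, or −0.72 with dim genes at their bound, against 0.08 and 0.0 over all genes. Over all genes, 19.2% were called lower. Among the 7, FCGRT was dim on all 6 arrays, so no fold is given for it. HLA-E had 1086, 1058 and 1128 on the MALT1-labelled arrays against 1899, 2141 and 2211 on the mock-labelled arrays (−0.93 ± 0.10, limma adjusted p = 0.00158). HLA-C fell likewise, with 343, 301 and 329 against 608, 682 and 552 (−0.91 ± 0.12, adjusted p = 0.00317). Among partners outside the HLA genes, the iron regulator HFE fell by 2.16 (adjusted p = 0.000949) and the lipid presenter CD1D by 2.25 (adjusted p = 0.00809). Probe sets for HLA genes can bind several family members. The ADAM10 partners were split, since of 3 TspanC8 tetraspanins measured, TSPAN5 fell (−1.20 ± 0.14, adjusted p = 0.00235), TSPAN15 rose (1.19 ± 0.15, adjusted p = 0.00327) and TSPAN14 did not pass.

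Subunits of the complexes that members belong to, and genes of GPI anchor synthesis, did not share 1 direction. Over all genes, 21.1% were called higher and 19.2% lower, so calls both ways are not particular to these lists. Of 8 COP9 signalosome subunits beside COPS2, 1 rose, 2 fell and 5 did not pass, with a median of 0.02. COPS3 fell to 2168, 2084 and 2093 on the MALT1-labelled arrays, against 3542, 3376 and 3424 on the mock-labelled arrays (adjusted p = 0.00191), and COPS8 fell by 0.30, while COPS4 rose (0.39 ± 0.08). Of 5 PAF1 complex subunits, the transcription elongation complex that LEO1 joins, 2 rose and 2 fell: CDC73 (1.59 ± 0.14) and SKIC8 (0.90 ± 0.09) rose, and CTR9 (−1.13 ± 0.11) and RTF1 (−0.39 ± 0.08) fell. Of 11 eIF3 subunits measured, 2 rose and 4 fell, with a median of 0.07, among them EIF3F (−0.76 ± 0.11), EIF3M (−0.68 ± 0.14), EIF3A (−0.54 ± 0.12) and EIF3K (0.54 ± 0.12). Of 14 genes of GPI anchor synthesis beside PIGB, 1 rose and 3 fell. PIGF rose (1.04 ± 0.08), and PIGN, PIGK and PIGO fell by 1.33, 0.47 and 0.47.

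Of 26 measured paralogs of members, 9 rose, 5 fell and 12 did not pass, where 21.1% of all genes rose and 19.2% fell. Over all partner and paralog lists, 42 genes passed, and 27 did without mock replicate 2 and 28 without MALT1 replicate 1. The cotransporter SLC12A2, whose kidney paralog SLC12A1 was dim, had 1921, 1969 and 1967 on the MALT1-labelled arrays against 425, 428 and 386 on the mock-labelled arrays (2.24 ± 0.09, adjusted p = 9.25e-05). TCF4, an E protein like TCF12, fell (−1.39 ± 0.10, adjusted p = 0.000532). ALDH1A3, the retinoic acid enzyme measured here well above the dim level, fell (−1.43 ± 0.10, adjusted p = 0.00039). SECISBP2, a selenoprotein translation factor, rose (1.27 ± 0.10, adjusted p = 0.000607), with its paralog SECISBP2L uncalled.

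**Figure D3:**
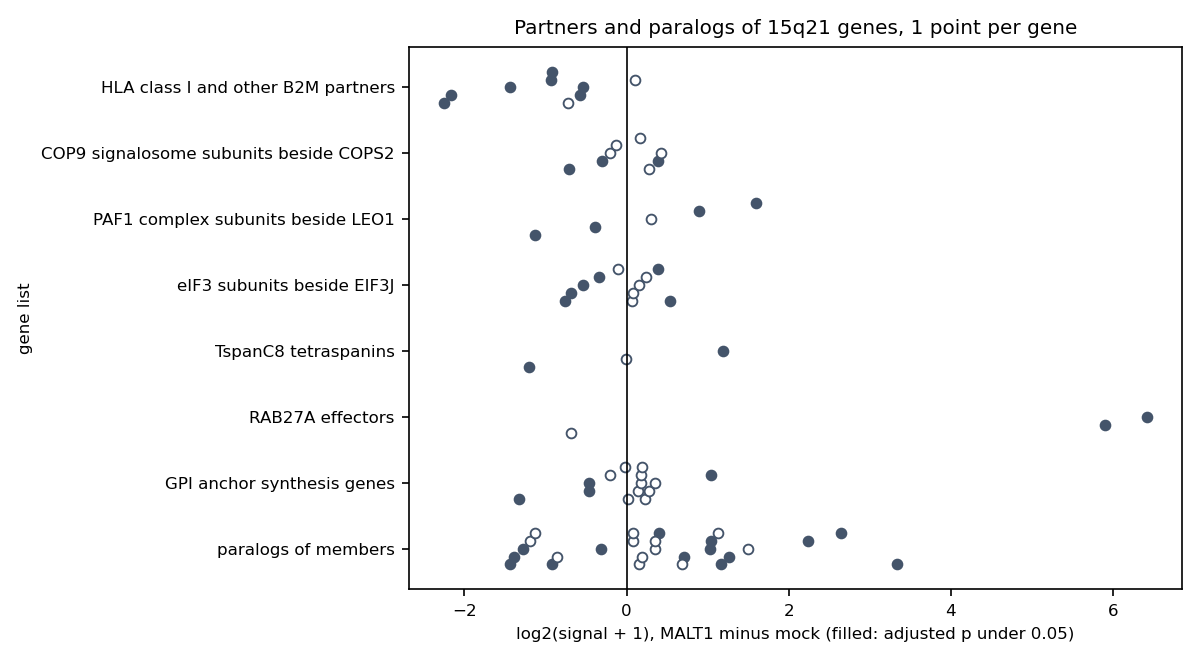
Difference in log2(signal + 1), MALT1-labelled minus mock-labelled arrays, for each measured gene of the partner and paralog lists, 1 point per gene, filled where the adjusted p was under 0.05. The partners of B2M lie below 0 except 1, the RAB27A effectors MLPH and SYTL2 lie at 5.90 and 6.42, and the complexes spread on both sides of 0.

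Several members could be checked on more than 1 probe set. Of the 23 further probe sets of 18 members, 9 were called higher, 3 lower and 11 not called, and 4 were dim on all 6 arrays. None was called against its gene's brightest probe set, and 11 were called in its direction. The remaining call was the second probe set of EIF3J, whose brightest was not called.

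**Figure D4:**
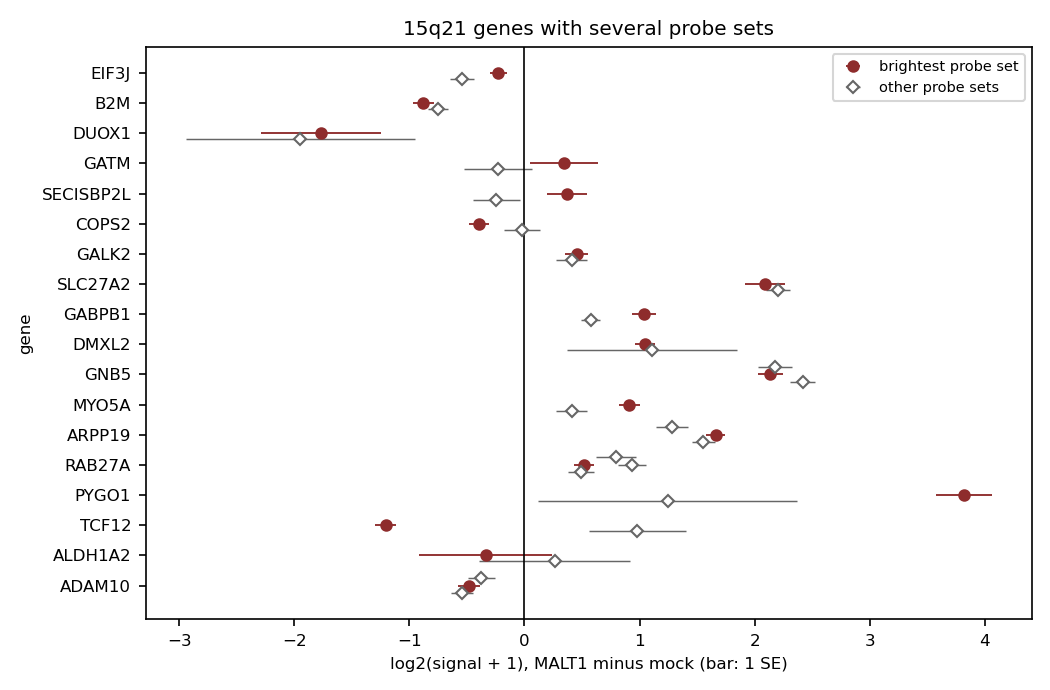
Difference in log2(signal + 1), MALT1-labelled minus mock-labelled arrays, for the 18 genes with several probe sets. Filled circles are the brightest probe set, open diamonds the others, and bars are 1 SE. The probe sets of SLC27A2, GNB5, ARPP19 and RAB27A all lie above 0, those of B2M, EIF3J and ADAM10 below, and the TCF12 probe sets lie on opposite sides of 0.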

How the data were processed

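The authors deposited 1 linear signal intensity per probe set and array, already summarised over probes. The software that made them was not given in the sources used here, and no detection calls were used. Each array's values show scaling to a mean of 500.1 to 500.2 after trimming 2% at each end. Total RNA was extracted with Trizol, per the labels' protocols. Of 22277 probe sets, 62 controls were left out and 22215 tested, with no filter. The platform annotation names 1 gene for 19064 of them, more than 1 for 1043 and no gene for 2108. Of those with 1 gene, 19052 were matched by gene ID to RefSeq (GRCh38.p14), which served for names and gene order. The array names no build, so coordinates are given only with RefSeq promoter sequences.

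Groups came from the sample titles. Log2(signal + 1) was fitted with limma 3.58.1 in R 4.3.3, with no term beside the group, and p-values (two-sided) were adjusted over all 22215 probe sets. The fit was tested on simulated data. The 6 arrays limit the precision. Across arrays the median signal was 69.3 to 79 in the MALT1 group and 64.1 to 68.2 in the mock group, and the share of dim probe sets was 25.6% to 31.8% and 32.4% to 33.3%. MALT1 replicate 3 had the lowest share, and held the trp control signal of 17.6. A gene dim on all arrays of 1 group has a bound, 17.6 set against the brighter group's geometric mean, and genes dim in both get no fold. That level was chosen after seeing the data.

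Members and lists were chosen with earlier results of these data known. All 43 members were to be named, and in each partner list and the paralog list up to 4 genes with the smallest adjusted p. No such rule was set for the marker lists, of which only some genes are named. Some further genes were named where a result turned on them. Alternatives were quantile normalization, median centring, a pseudocount of 16 or none, dim probe sets left out, the mean over a gene's probe sets, the replicate number as a block, and each array left out.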

Additional observations from a re-analysis of the deposited data

How the results depend on the processing

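Of 22 called members, 15 kept their call under all 13 alternatives, including the one added after seeing the data (no pseudocount), and none of the 22 turned its direction. Of uncalled members, DUOX1 was called under 7 alternatives, among them quantile normalization and the replicate block, and EIF3J and NEDD4 under 4 each, among them median centring and a pseudocount of 16. Differences of several uncalled members changed sign, such as PIGB (−0.03 to 0.16), SEMA6D (−0.48 to 0.69) and BCL2L10 (−0.59 to 1.49). Members called higher numbered 13 to 16 and lower 5 to 9. The members' median was 0.17 after quantile normalization, 0.18 after median centring, 0.45 without dim probe sets and 0.29 to 0.48 with 1 array left out. The median of all genes was −0.02 and −0.05 under both normalizations, against 0.08, so levels are relative to such a shift. Averaging probe sets ended the calls of DMXL2, COPS2 and TCF12, and median centring that of GALK2. Proximal flank genes called higher were 5 with that mean, and distal ones 8 with median centring. With 1 array left out, the proximal flank had 5 to 7 higher and 7 to 11 lower, the distal flank 8 to 11 higher, and the partner and paralog lists 27 to 36 called, against 42. The labels link same-numbered arrays only by their number. Their deviations from the group means had correlations of −0.003 to 0.061, and those of differently numbered arrays −0.082 to 0.048. Whether they form pairs cannot be told from this. The replicate block gave 5 higher and 6 lower proximal genes, 8 higher distal genes and 26 listed genes, and ended the calls of SPG11, COPS2, GALK2, ADAM10 and RAB27A. The cause of these moves was not tested. Signals near 17.6 limit what can be said of dim genes.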
